A study of Danio rerio with 25 samples.

Results

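Adrenomedullin is a secreted peptide, and its signal needs 2 kinds of receptor part. The 5 genes described here are the zebrafish genes that the deposited RNA table names *adma* and ADM (2 of 2), which encode the ligands, *calcrla* and *calcrlb*, which encode calcitonin receptor-like receptors, and *ramp2*, which encodes their partner protein. They are 5 of the 31275 genes of that table. They were picked by name because of the difference of both ligands between larval epicardium and the other larval heart cells in RNA, so those RNA levels are given as a description with no test. A further 18 of 61954 peaks of chromatin accessibility carry the gene identifier of a member in the deposited peak annotation. These are 2 peaks of *adma*, 2 of ADM (2 of 2), 5 of *ramp2*, 7 of *calcrla* and 2 of *calcrlb*. The peak annotation uses the name *admb* for the identifier of ADM (2 of 2).

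Adrenomedullin acts through the calcitonin receptor-like receptor, a G protein-coupled receptor that reaches the cell surface and takes up its ligand only together with a receptor activity-modifying protein, of which RAMP2 is one. The paired receptor raises cyclic AMP through Gs. In mice the loss of the ligand, of the receptor or of RAMP2 disturbs blood and lymphatic vessels and the heart before birth, and the epicardium, the layer that covers the heart, is one source of the peptide there. In zebrafish *calcrla* is known for its part in the formation of arteries.

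Polyadenylated RNA and accessibility (by ATAC-seq, which tags open DNA with a transposase) were measured in 25 libraries of zebrafish heart cells. RNA came from adult epicardium at 3 days after cryoinjury, in which part of the ventricle is frozen (3 libraries), or after sham surgery (2 libraries), and from larval epicardium and larval non-epicardium at 5 days post fertilization (3 libraries each). The adult groups carried tcf21:BirA-mCherry and their RNA was taken by a pulldown of nuclei, whereas the larval groups carried tcf21:H2B-Dendra2 and their cells were sorted by fluorescence. ATAC-seq was made on sorted cells from adult hearts with tcf21:BirA-mCherry after cryoinjury (4 libraries) or sham surgery (2 libraries), and from larval epicardium and non-epicardium with tcf21:H2B-Dendra2 (2 libraries each) or with tbx18:myr-Citrine (2 libraries each). Stage and construct, and in RNA also purification, cannot be told apart. A batch difference between the larval ATAC reporters, if there was one, cannot be told apart from the reporter. The labels do not say whether replicates came from separate animals or pools, so p-values measure the spread between these libraries, which may be technical.

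The RNA libraries held 4635226 to 8371594 counts each and the ATAC libraries 755606 to 6248597. Levels are given as CPM, the usual per-library scaling of counts, here with TMM library sizes. A level of 3 counts corresponds to 0.358 to 0.647 CPM in RNA and to 0.480 to 3.97 CPM in ATAC by the library totals, for counting error only. The summed level of 5 epicardial markers was 515 to 1429 CPM in larval epicardium and 10.6 to 18.4 CPM in larval non-epicardium, and lay between 370.7 and 571 CPM in the adult libraries. Summed cardiomyocyte markers (6 measured) were 12670 to 18140 CPM after cryoinjury and 17000 to 30600 CPM after sham surgery, 147 to 1085 CPM in larval epicardium and 4064 to 12020 CPM in larval non-epicardium. In bulk libraries fewer cells of a type and less RNA per cell cannot be told apart.

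*adma* (ENSDARG00000015263) was the more abundant ligand of the larval epicardium. It had 2469.9, 815 and 2479 CPM in larval epicardium libraries A, B and C, against 5.96, 1.72 and 3.96 CPM in the larval non-epicardium libraries. Every larval epicardium library lay far above every non-epicardium library, and library B was the lowest of the epicardium libraries for both ligands and for *calcrla*. For *calcrla* this order depended on scaling. By library totals library B, with 2245 counts of 5250092, was above library C, with 3418 of 8371594. The mean was 1921 ± 958 CPM in larval epicardium and 3.88 ± 2.12 CPM in non-epicardium (SD, n = 3 each), a fitted log2 fold change of 8.94, which is the 5th highest of 20745 genes fitted, whose median was 0.32. In the adult epicardium *adma* was lower. It had 21.9, 42.8 and 40.3 CPM in cryoinjury replicates 7, 8 and 9, and 18.9 and 59.5 CPM in sham replicates 4 and 12. These adult groups overlapped, and both lay between the larval groups.

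ADM (2 of 2) (ENSDARG00000069027), the second ligand gene, was also high in larval epicardium, but it was more abundant than *adma* in the other larval heart cells. It had 1061, 371 and 1331 CPM in larval epicardium libraries A, B and C, and 85.6, 28.1 and 56.5 CPM in larval non-epicardium. Its means were 921 ± 495 CPM in epicardium and 56.8 ± 28.8 CPM in non-epicardium (SD, n = 3 each), a fitted log2 fold change of 4.02. In the adult it was low, with 1.83, 2.65 and 12.3 CPM (10, 13 and 64 counts) after cryoinjury and 0 counts in both sham libraries. The 4 RNA groups did not overlap for ADM (2 of 2), in the order larval epicardium, larval non-epicardium, cryoinjury and sham from high to low.

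**Figure D1:**
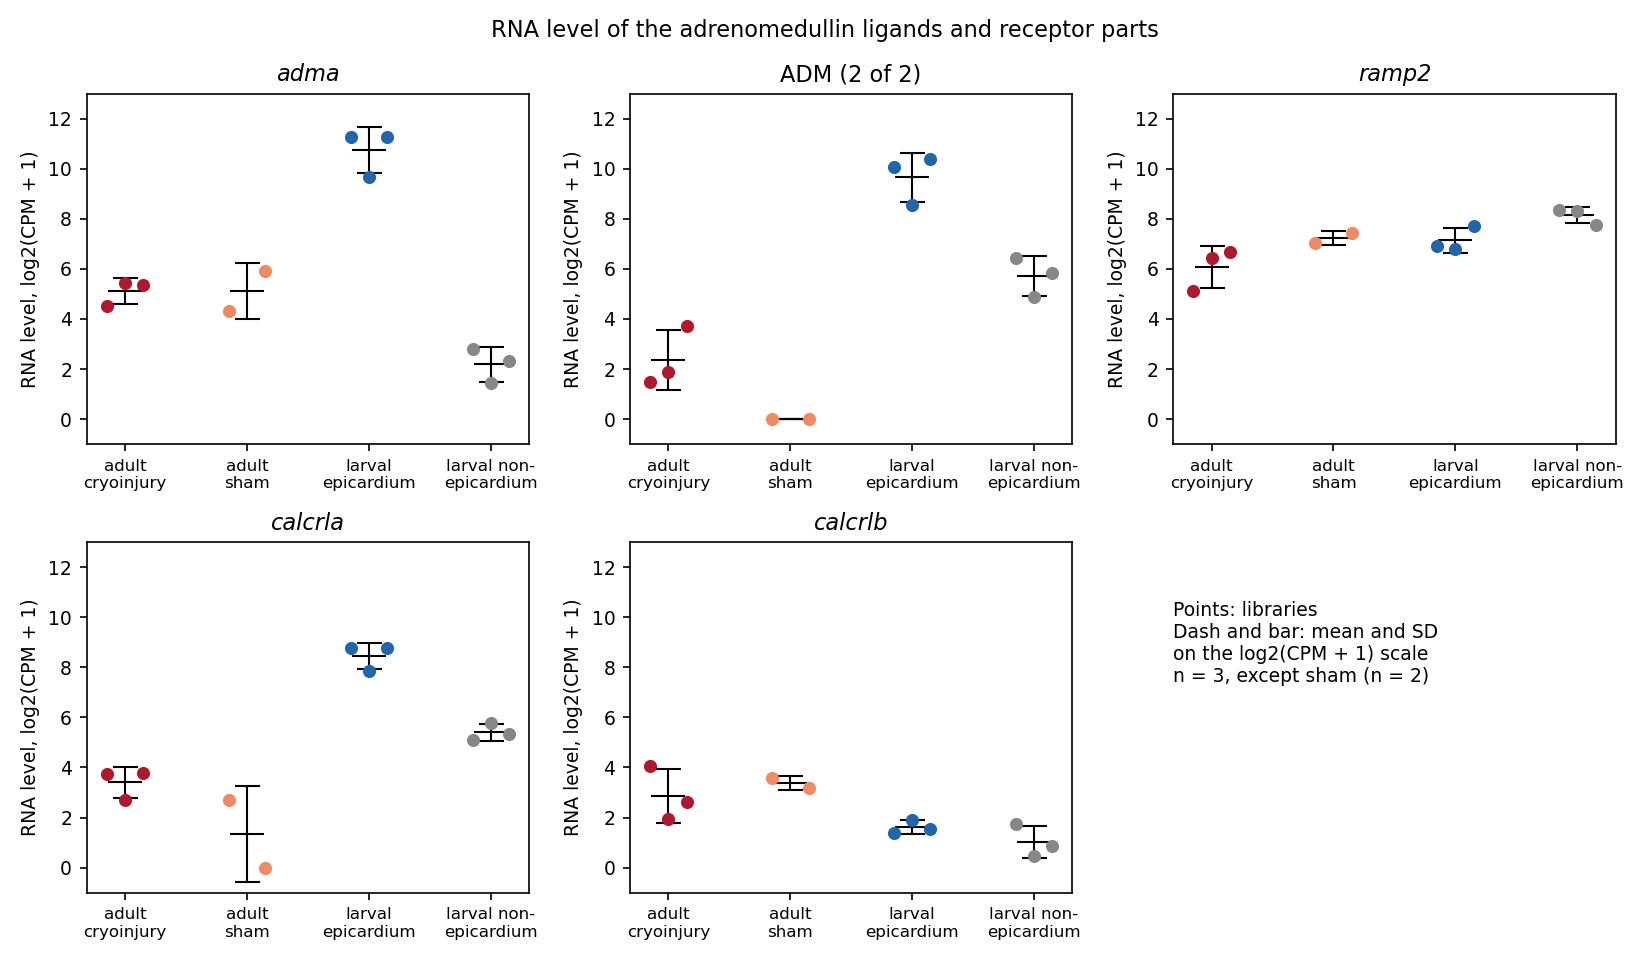
RNA level of each member as log2(CPM + 1) (vertical axis) in adult cryoinjury, adult sham, larval epicardium and larval non-epicardium (points: libraries, dash and bar: mean and SD on this scale). Both ligands and *calcrla* are highest in larval epicardium, *ramp2* is highest in larval non-epicardium and *calcrlb* is low in every group.

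The receptor parts did not share one pattern. *calcrla* (ENSDARG00000011473) had 433, 231 and 434 CPM in larval epicardium libraries A, B and C, against 33.6, 54.1 and 39.2 CPM in larval non-epicardium. The groups did not overlap, and the fitted log2 fold change was 3.11. In the adult *calcrla* had 12.4, 5.51 and 12.7 CPM in cryoinjury replicates 7, 8 and 9, and 5.50 and 0 CPM in sham replicates 4 and 12. The lowest cryoinjury library and the higher sham library were almost equal.

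*ramp2* (ENSDARG00000037895), the accessory protein that makes the receptor respond to adrenomedullin, was present in all 11 RNA libraries. It had 119.7, 110.4 and 207 CPM in larval epicardium and 329.7, 314 and 217 CPM in larval non-epicardium, so it was lower in the epicardium, by a fitted log2 fold change of -0.98, with a narrow gap between the groups. With scaling by total count the log2 fold change was -0.47. The gap then closed, with 1072 counts of 5250092 in epicardium library B against 1039 of 5549975 in non-epicardium library C. It had 33.4, 86.1 and 101 CPM after cryoinjury and 129 and 171 CPM after sham surgery. Sham and larval epicardium overlapped, and cryoinjury lay just below both. The gap to sham depended on scaling. By library totals it closed, with 540 counts of 6213579 in sham replicate 4 against 529 of 4927082 in cryoinjury replicate 9. Summed markers of blood endothelium and endocardium, cells in which *ramp2* is known to be active, were 382 to 572 CPM after cryoinjury, 662 to 1117 CPM after sham surgery, 121 to 206 CPM in larval epicardium and 241 to 466 CPM in larval non-epicardium, with all 9 markers detected in each group. Their part in the *ramp2* levels was not tested.

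*calcrlb* (ENSDARG00000011571), the second receptor gene, was the least abundant member in larvae. It had 1.62, 2.78 and 1.91 CPM in larval epicardium and 2.35, 0.382 and 0.835 CPM in larval non-epicardium, and these groups overlapped (log2 fold change 0.81). It had 15.5, 2.86 and 5.18 CPM after cryoinjury and 10.99 and 8.05 CPM after sham surgery, and the sham libraries lay within the range of cryoinjury. Of the 5 members, 4 did not overlap between larval epicardium and non-epicardium in RNA with TMM library sizes. Among these 4, *ramp2* overlapped by library totals. Of all genes fitted, 43.0% did not overlap and 13.4% were called in that comparison, and nothing is read from these shares because the members were chosen on it.

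Per kilobase of the deposited gene length, which allows genes to be compared, *adma* had 1139 CPM per kilobase in larval epicardium on average, ADM (2 of 2) 609, *calcrla* 217, *ramp2* 69.2 and *calcrlb* 1.32. In larval non-epicardium the order was *ramp2* with 136 CPM per kilobase, ADM (2 of 2) with 37.5, *calcrla* with 25.1, *adma* with 2.30 and *calcrlb* with 0.745. After cryoinjury *ramp2* had 35.0 CPM per kilobase, *adma* 20.8, *calcrla* 6.05, *calcrlb* 4.92 and ADM (2 of 2) 3.69. After sham surgery *ramp2* had 71.3 CPM per kilobase, *adma* 23.2, *calcrlb* 5.97, *calcrla* 1.63 and ADM (2 of 2) 0. Thus the ligand level exceeded the *ramp2* level in larval epicardium, and *ramp2* exceeded each ligand in the other 3 groups. Library by library, *adma* was 25.7, 9.20 and 14.9 times *ramp2* per length in larval epicardium, and at most 0.818 times *ramp2* in any other library.

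The make-up of the ligand RNA differed between the larval populations. *adma* made up 67.6%, 66.3% and 62.5% of the level of both ligands per length in larval epicardium libraries A, B and C, against 5.87%, 5.20% and 5.91% in larval non-epicardium. The exact Clopper-Pearson 95% intervals of single libraries, which cover counting error only, spanned 62.0% to 68.2% in larval epicardium and 2.40% to 9.67% in non-epicardium. Both populations thus contained both ligands, with the opposite one in excess. In the adult, *adma* made up 91.5%, 93.5% and 74.6% in cryoinjury replicates 7, 8 and 9. With ADM (2 of 2) at 0 counts in both sham libraries, the share it could have had there is up to 4.06% in replicate 4 and 1.18% in replicate 12.

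The make-up of the receptor RNA differed between the larval and the adult libraries, in which stage, construct and purification cannot be told apart. *calcrla* made up 98.8% to 99.6% of the level of both receptor genes per length in larval epicardium and 93.1% to 99.3% in larval non-epicardium. It made up 43.1%, 64.6% and 69.9% in cryoinjury replicates 7, 8 and 9, and 32.2% and 0% in sham replicates 4 and 12, where 0 counts of *calcrla* allow a share of up to 6.96%. All 5 adult libraries lay below all 6 larval ones. The members of each pair are related genes, and how the counting divided reads between related genes is not given in the sources used here.

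**Figure D2:**
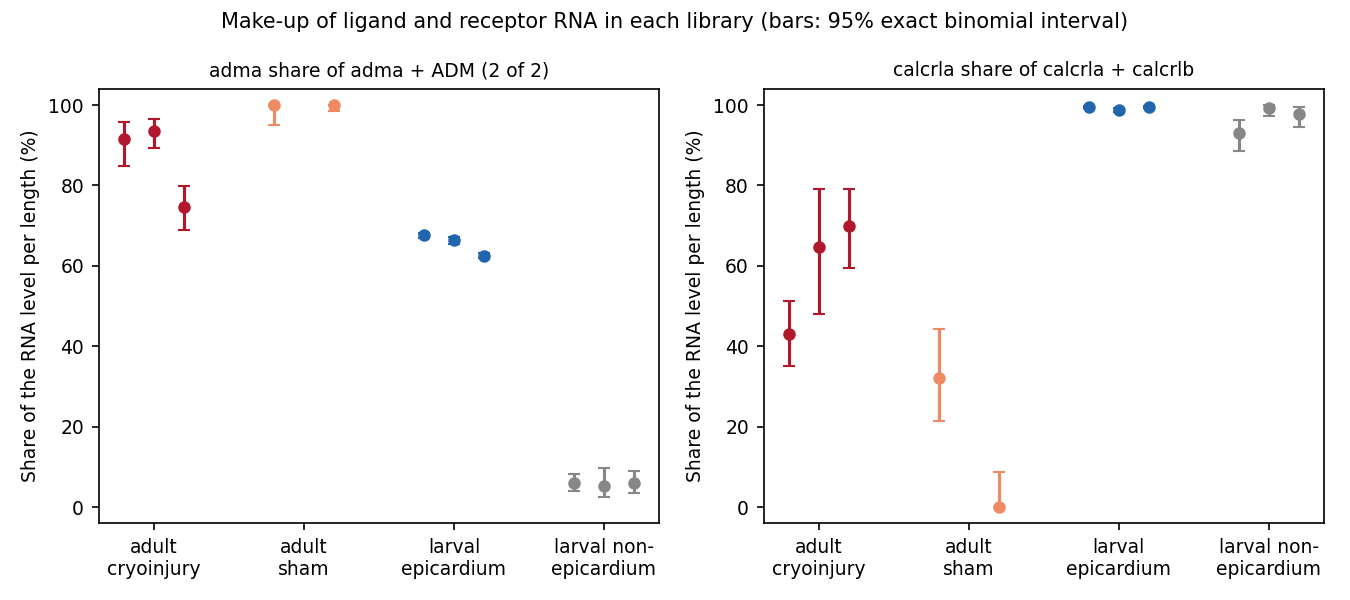
Share of *adma* in the level of both ligands (left) and of *calcrla* in the level of both receptor genes (right), per gene length, in percent (vertical axis) for each RNA library of adult cryoinjury, adult sham, larval epicardium and larval non-epicardium. Bars are exact 95% binomial intervals for counting error; the *adma* share is 62.5% to 67.6% in larval epicardium and 5.20% to 5.91% in larval non-epicardium.

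After cryoinjury 1 of the 5 members passed the test in adult RNA, against 0.318% of all genes tested. ADM (2 of 2) was higher after cryoinjury, with 5.58 ± 5.81 CPM (SD, n = 3) against 0 counts in both sham libraries, at least 8.26-fold when each sham library is set to 3 counts (edgeR adjusted p = 0.0469 quasi-likelihood test over all genes). Replicate 9 held most of its counts. This call did not hold when only cryoinjury and sham libraries were fitted (edgeR adjusted p = 0.295) or without sham replicate 12 (edgeR adjusted p = 0.067).

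The other members did not pass after cryoinjury. *calcrla* averaged 10.2 ± 4.06 CPM in the cryoinjury libraries (SD, n = 3) and 2.75 ± 3.89 CPM in the sham libraries (SD, n = 2), which is a log2 fold change of 1.91 (SE 0.86, edgeR adjusted p = 0.241). Without sham replicate 4, which leaves only the sham library with 0 counts, it was called (edgeR adjusted p = 0.0128). *ramp2* averaged 73.6 ± 35.7 CPM in the cryoinjury libraries (SD, n = 3) and 150.1 ± 29.7 CPM in the sham libraries (SD, n = 2), which is a log2 fold change of -1.03 (SE 0.53, edgeR adjusted p = 0.301). *adma* had a log2 fold change of -0.16 (SE 0.60, edgeR adjusted p = 0.987) and *calcrlb* of -0.28 (SE 1.13, edgeR adjusted p = 1), and the sign of both turned with scaling by total count. Summed leukocyte markers were 182 to 362 CPM after cryoinjury and 106 CPM in both sham libraries, and summed mural and fibroblast markers were 8909 to 16030 CPM after cryoinjury and 5366 to 5714 CPM after sham surgery. Of the 6 leukocyte and the 7 mural and fibroblast markers, 0 were called between cryoinjury and sham, and 2 leukocyte markers held at most 3 counts in each sham library. The part of these cells in the differences of the members was not tested.

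Between adult and larval epicardium the receptor parts were tested, and the ligands are described. *calcrla* was lower in both adult groups than in larval epicardium (366 ± 117 CPM, SD, n = 3). The log2 fold change was -5.16 for cryoinjury (SE 0.80, edgeR adjusted p = 9.63e-05) and -7.07 for sham (SE 1.07, edgeR adjusted p = 8.97e-05), against medians of all genes of -0.59 and -0.92. It was 1 of 3 receptor parts called in each comparison, where 38.1% of all genes were called for cryoinjury (26.0% lower) and 37.2% for sham (25.6% lower). Both comparisons share the larval libraries. *ramp2* had log2 fold changes of -0.98 for cryoinjury (SE 0.48, edgeR adjusted p = 0.115) and 0.04 for sham (SE 0.53, edgeR adjusted p = 0.957), with the sign of the sham value turned under DESeq2 size factors and total count. DESeq2 size factors made it a call, lower after cryoinjury (log2 fold change -1.34, edgeR adjusted p = 0.0199), as did scaling by total count and the Wald test of DESeq2. *calcrlb* had log2 fold changes of 1.89 for cryoinjury (edgeR adjusted p = 0.17) and 2.16 for sham (edgeR adjusted p = 0.137). The ligands had lower levels in the adult, with a log2 fold change for *adma* of -5.78 for cryoinjury and -5.61 for sham. For ADM (2 of 2) it was -7.36 for cryoinjury, and the sham level was at least 1362-fold below larval epicardium. Nuclei and whole cells are compared here, so that the purification cannot be told apart from stage. In each adult group 6 of 6 tested cardiomyocyte markers and 7 of 9 of blood endothelium and endocardium were called higher than in larval epicardium, and 0 lower. Of 5 epicardial markers 2 were called lower in each, and 0 higher. Erythrocyte markers went both ways. The part of the cell make-up in the differences of the members was not tested.

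The other measured genes listed with the calcitonin family had mean levels of 1.01 to 63.5 CPM in larval epicardium, the highest being that of *crcp*. Of 3 further ligand genes, *adm2a*, whose product is a relative of adrenomedullin, was lower in larval epicardium (1.44 ± 1.099 CPM) than in larval non-epicardium (41.9 ± 20.2 CPM; SD, n = 3 each; log2 fold change -4.83, edgeR adjusted p = 0.00303), and *adm2b* and *calca* were not called. For 3 further genes listed with the receptors (*RAMP1*, *calcr*, *crcp*) the adjusted p between the larval populations ran from 0.219 to 0.612 (edgeR). *crcp*, named as a component of the related CGRP receptor, was lower in cryoinjury (4.48 ± 1.60 CPM, n = 3) and sham (1.98 ± 1.60 CPM, n = 2) than in larval epicardium (63.5 ± 33.6 CPM, SD, n = 3), with adjusted p = 0.000223 in both (edgeR). The 3 further ligand genes averaged 1.01 to 2.12 CPM in larval epicardium and were at 0 CPM after cryoinjury. All were called lower in cryoinjury (adjusted p from 0.00589 to 0.0345, edgeR), as were 26.0% of all genes. In sham they averaged 0 to 0.478 CPM, and the difference did not pass (adjusted p from 0.0651 to 0.258, edgeR). With adult levels this low, these genes can have entered the test only through the larval libraries. Genes low in every group were filtered out, so nothing further is read from these calls. *calcr* was called lower in sham, with 0 CPM (n = 2) against 2.80 ± 2.25 CPM in larval epicardium (SD, n = 3; adjusted p = 0.0297, edgeR). At 0 CPM in sham, it too can have entered the test only through other groups, and nothing further is read from this call.

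Lists of related genes, those of the calcitonin family and of hypoxia included, held 80 tested genes. Between the larval populations 5 of the 80 were higher in epicardium and 4 lower, a share near the 13.4% called of all genes. Of 10 tested genes of peptide processing, 1 was higher in larval epicardium than in non-epicardium and 0 were lower (list median log2 fold change 1.18, all genes 0.32). It was *pam*, the enzyme that forms the C-terminal amide of peptides such as adrenomedullin, with 34.6 ± 2.02 CPM in epicardium and 10.5 ± 3.60 CPM in non-epicardium (SD, n = 3 each; log2 fold change 1.72, edgeR adjusted p = 0.0454). Of 5 genes of binding and breakdown, 1 was higher, *ece2b*, a metalloprotease of the endothelin-converting enzyme family (24.2 ± 15.9 CPM in epicardium and 4.75 ± 0.271 CPM in non-epicardium, edgeR adjusted p = 0.0251). Of 27 genes of Gs, adenylate cyclase and protein kinase A, 1 was higher and 1 lower in larval epicardium (list median 0.56). The cyclase *adcy7* had 22.8 ± 5.23 CPM in epicardium and 3.26 ± 2.37 CPM in non-epicardium (edgeR adjusted p = 0.0135), and the kinase subunit *prkacba* had 1.21 ± 0.735 CPM in epicardium and 15.7 ± 5.65 CPM in non-epicardium (edgeR adjusted p = 0.0437).

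Mammalian adrenomedullin is a hypoxia target, and hypoxia regulators and targets were therefore listed beside it. Of 32 such genes, 2 were higher and 2 lower in larval epicardium (list median log2 fold change -0.14, all genes 0.32), a share near the 13.4% called of all genes. The growth factor *vegfaa* had 259 ± 61.4 CPM in epicardium and 36.4 ± 11.3 CPM in non-epicardium (edgeR adjusted p = 0.00135), and the glucose transporter *slc2a1b* had 71.8 ± 6.31 CPM in epicardium and 6.98 ± 4.45 CPM in non-epicardium (edgeR adjusted p = 0.00336). *igfbp1a* had 1.46 ± 1.06 CPM in epicardium and 258.8 ± 154 CPM in non-epicardium (edgeR adjusted p = 8.84e-06), and *pdk1* 3.34 ± 1.87 CPM in epicardium and 54.9 ± 20.5 CPM in non-epicardium (edgeR adjusted p = 0.0255; SD, n = 3 each).

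In cryoinjury against sham 0 of the 80 tested genes of these lists and of the calcitonin family lists were called by edgeR, against 0.318% of all genes. The Wald test of DESeq2 called 4 of the 80, against 1515 of all 20745 genes. By edgeR 15 of the 80 had an unadjusted p under 0.05. The share of all genes at that threshold was not counted, so nothing is read from these 15. Against larval epicardium, 11 of the 80 were higher and 18 lower after cryoinjury, and 20 were higher and 14 lower after sham surgery. Of all genes 38.1% were called for cryoinjury and 37.2% for sham, so the shares called in either direction lay near those of all genes. The split by direction did not in sham, where 2386 of all 20745 genes were higher and 5321 lower. For cryoinjury 2518 of all genes were higher and 5386 lower. Hypoxia genes were 12 of the 20 listed genes higher in sham and 4 of the 14 lower. *gnas*, which encodes the Gs protein that the receptor uses, had 33.9 ± 11.8 CPM in cryoinjury (SD, n = 3) and 72.9 ± 10.8 CPM in sham libraries (SD, n = 2), against 8.42 ± 4.20 CPM in larval epicardium (SD, n = 3; adjusted p = 0.0153 and 0.00253, edgeR). *cremb*, named as a modulator of the cyclic AMP response element, had 4.93 ± 2.63 CPM after cryoinjury and 5.70 ± 7.16 CPM after sham surgery, against 137 ± 12.46 CPM in larval epicardium (adjusted p = 0.000284 and 0.00213, edgeR). *epas1b*, a hypoxia-inducible factor gene, had 78.1 ± 12.2 CPM after cryoinjury and 249 ± 161 CPM after sham surgery, against 5.16 ± 2.07 CPM in larval epicardium (adjusted p = 0.000248 and 2.07e-05, edgeR).

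The genes whose RNA level was most like that of *adma* over the 11 libraries were *ppfibp1a*, *rnd3b*, *kctd1*, *raver2* and *aoc2*, with a Pearson r of log2(CPM + 1) of 0.988 to 0.975. For ADM (2 of 2) they were *phyhd1*, a locus with the placeholder name ensembl_havana.18, *bco1*, *pmp22a* and *RGL4*, with r from 0.985 to 0.976. The lists of the ligands shared no gene. These libraries fall into 4 groups and share their stage and purification, so r is given as a description.

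In accessibility, the share of member peaks called between the larval populations was above that of all peaks with tbx18 and near it with tcf21. The members were chosen on the RNA difference between larval epicardium and non-epicardium, and several peaks belong to the same gene. For these reasons nothing further is read from these shares. With tbx18, 11 of 17 tested member peaks were called between larval epicardium and non-epicardium, 7 higher and 4 lower, against 26.9% of all tested peaks (13.8% higher, 13.1% lower). With tcf21, 3 of 17 were called, 2 higher and 1 lower, against 13.2% of all peaks (6.69% higher, 6.55% lower). Leaving out 1 library gave 7 to 8 calls with tbx18 and 0 to 2 with tcf21, and the test of the difference between the reporters called 1 of the 17 peaks, against 1.51% of all peaks. All 7 higher tbx18 peaks belonged to the ligands and *calcrla*, and all 4 lower ones to *ramp2* and *calcrlb*. Of the 4 tcf21 larval libraries, 3 held 755606 to 941610 counts and non-epicardium replicate 1 held 2273259, whereas the tbx18 larval libraries held 2051230 to 6248597. The remaining *calcrla* peak had too few counts to be tested.

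The promoter peak of *adma* (chr7:66653075-66653575, build GRCz10, 85 bases downstream of the annotated start) had 26.6 and 11.8 CPM in tbx18 larval epicardium replicates 1 and 2, against 3.06 and 1.05 CPM in tbx18 non-epicardium. The groups did not overlap, with a log2 fold change of 3.04 (SE 0.61, edgeR adjusted p = 0.000184), and it was called in each of 4 fits that left out a library. With tcf21 the same peak had 4.47 and 12.01 CPM in larval epicardium and 2.99 and 9.33 CPM in non-epicardium (4, 8, 6 and 8 counts). These groups overlapped (log2 fold change 0.55, SE 0.76, edgeR adjusted p = 0.69), although *adma* RNA of the same reporter differed 491-fold. The difference between the effects of the reporters at this peak did not pass either (log2 difference -2.49, SE 0.97, edgeR adjusted p = 0.171). The upstream *adma* peak, 1.58 kb before the start, had log2 fold changes of 1.63 with tbx18 (edgeR adjusted p = 0.113) and 0.74 with tcf21 (edgeR adjusted p = 0.629).

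No promoter peak of ADM (2 of 2) was among its 2 peaks, which lie in intergenic sequence 2.73 kb (chr18:16814446-16814946) and 14.2 kb (chr18:16825948-16826448) upstream of the annotated start. The nearer one had 7.24 and 8.21 CPM in tbx18 larval epicardium (36 and 16 counts), against 0.360 and 1.05 CPM in tbx18 non-epicardium (2 counts each), a log2 fold change of 3.63 (SE 0.88, edgeR adjusted p = 0.00174). Without tbx18 non-epicardium replicate 1 it was not called (edgeR adjusted p = 0.0928). The farther one had a log2 fold change of 2.22 with tbx18 (SE 0.82, edgeR adjusted p = 0.0375), a call lost without any one of the 4 libraries. With tcf21 neither passed, with log2 fold changes of 0.48 and 1.49.

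**Figure D3:**
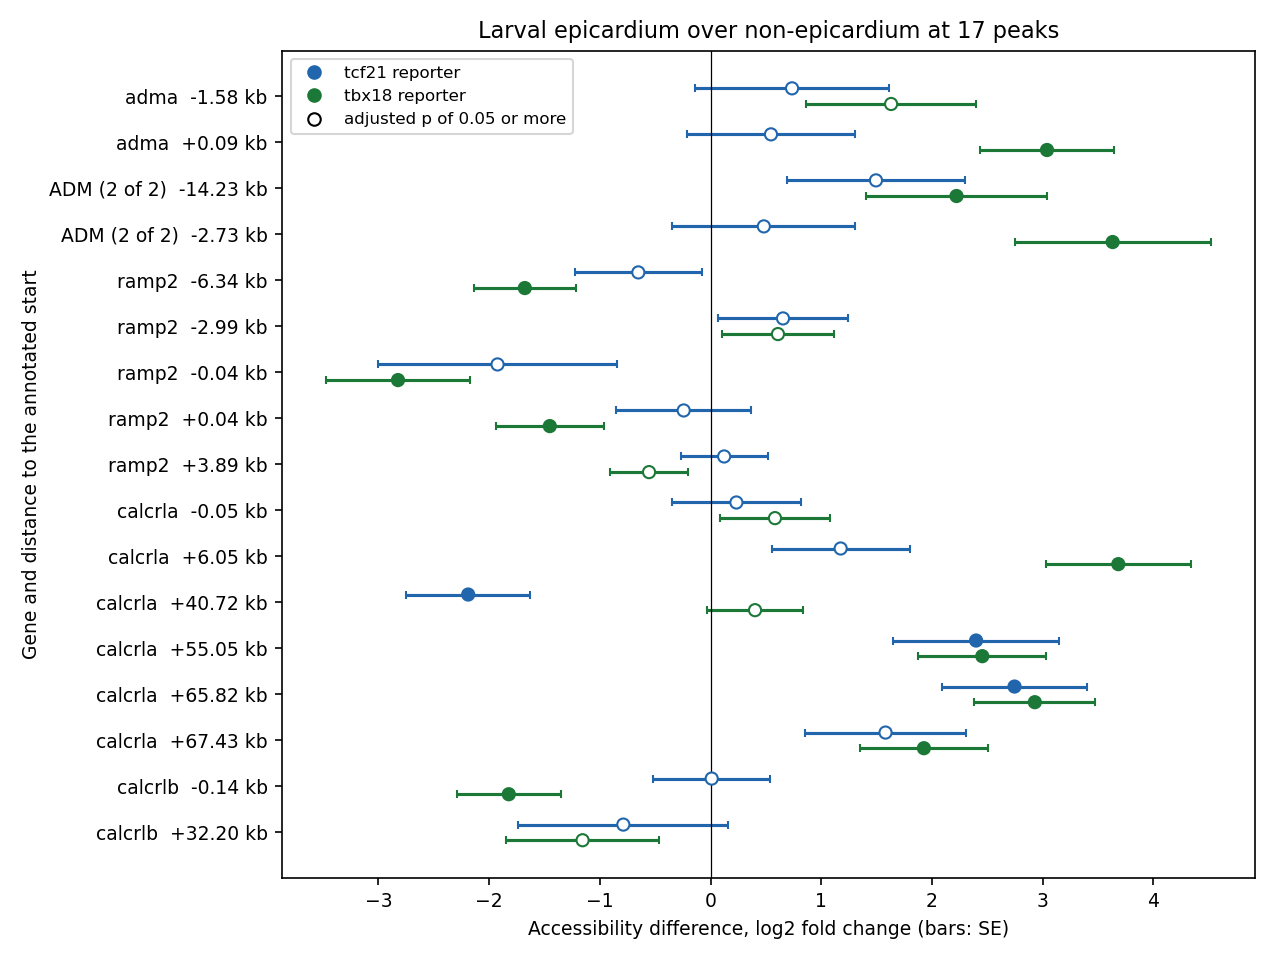
Log2 fold change of accessibility, larval epicardium over non-epicardium (horizontal axis, bars: SE), at the 17 tested peaks of the members, by gene and distance to the annotated start, for the tcf21 and the tbx18 reporter. Filled points passed an adjusted p under 0.05; with tbx18 the ligand and *calcrla* peaks that passed lie right of 0, and those of *ramp2* and *calcrlb* lie left of it.

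*calcrla* held the peaks that moved with both reporters. These are an intergenic peak 65.8 kb from the start on the gene's side (chr9:42550611-42551111) and a peak 55.1 kb from it (chr9:42561378-42561878) in the last annotated intron. The 65.8 kb peak had 41.9 and 40.0 CPM in tbx18 larval epicardium, against 4.68 and 6.32 CPM in tbx18 non-epicardium (log2 fold change 2.93, SE 0.55, edgeR adjusted p = 7.56e-05). It had 11.2 and 49.6 CPM in tcf21 larval epicardium, against 3.49 and 5.83 CPM in tcf21 non-epicardium (log2 fold change 2.75, SE 0.65, edgeR adjusted p = 0.0031). The groups did not overlap with either reporter, but tcf21 epicardium replicate 2 was far above replicate 1. Without it the tcf21 log2 fold change was 1.49 (edgeR adjusted p = 0.259), and without tcf21 non-epicardium replicate 1 it was 2.34 (edgeR adjusted p = 0.107).

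The 55.1 kb peak had 24.5 and 24.1 CPM in tbx18 larval epicardium and 5.93 and 2.11 CPM in tbx18 non-epicardium (log2 fold change 2.46, SE 0.58, edgeR adjusted p = 0.00128). With tcf21 it had 14.5 and 15.02 CPM in epicardium and 2.99 and 2.33 CPM in non-epicardium (log2 fold change 2.40, SE 0.75, edgeR adjusted p = 0.0266). The replicates of each group were close to each other except in tbx18 non-epicardium, and the tcf21 call was lost without any one of its 4 libraries while its log2 fold change stayed between 2.29 and 2.66.

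A peak in the first annotated intron, 6.05 kb from the start (chr9:42610384-42610884), had the largest tbx18 difference of the *calcrla* peaks. It had 21.3 and 19.5 CPM in tbx18 larval epicardium and 1.26 and 2.11 CPM in tbx18 non-epicardium (log2 fold change 3.68, SE 0.66, edgeR adjusted p = 4.02e-05). With tcf21 it had 19.0 and 22.5 CPM in epicardium and 8.98 and 9.33 CPM in non-epicardium, groups that did not overlap but did not pass (log2 fold change 1.18, SE 0.62, edgeR adjusted p = 0.219). The 67.4 kb peak was higher with tbx18 (log2 fold change 1.93, edgeR adjusted p = 0.0102), a call lost without epicardium replicate 2 or non-epicardium replicate 1. It had a log2 fold change of 1.58 with tcf21 (edgeR adjusted p = 0.15). At the *calcrla* promoter (chr9:42616479-42616979) the log2 fold changes were 0.58 with tbx18 (edgeR adjusted p = 0.408) and 0.23 with tcf21 (edgeR adjusted p = 0.839).

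**Figure D4:**
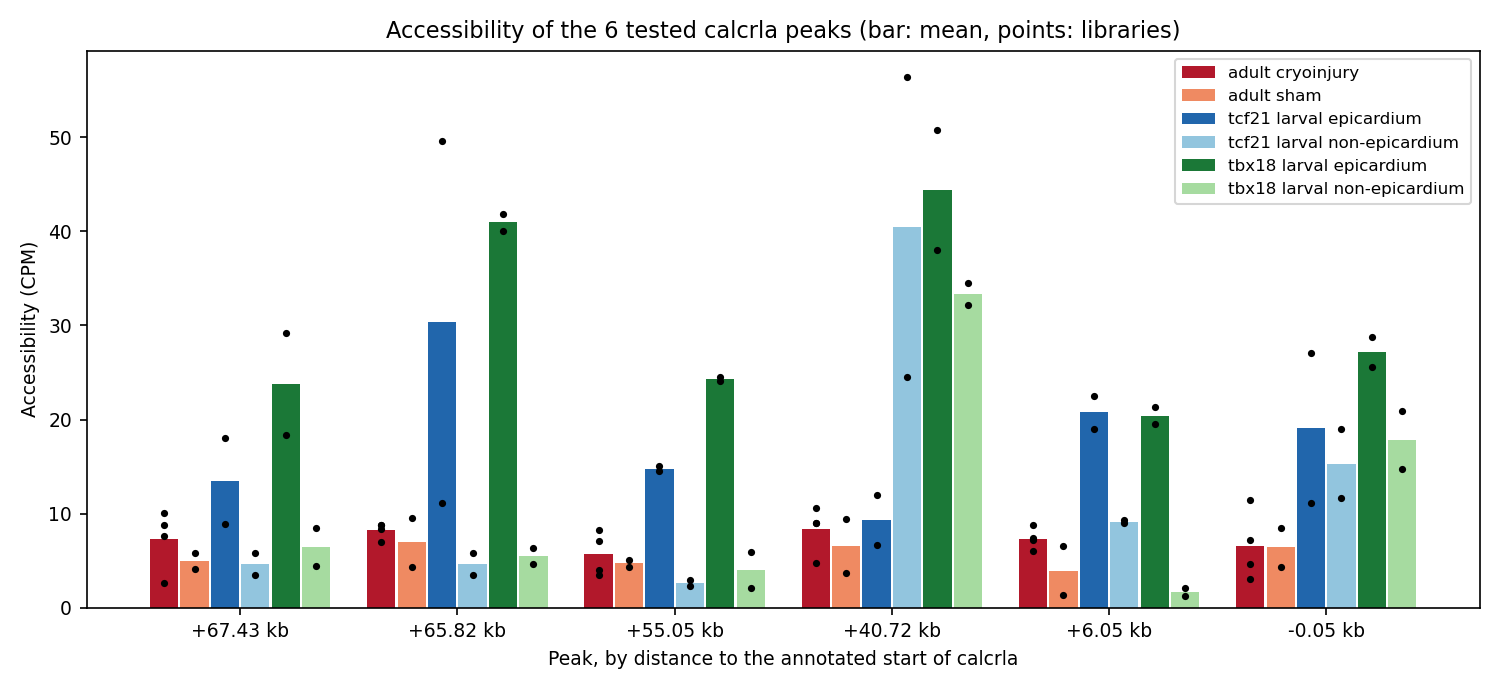
Accessibility in CPM (vertical axis) of the 6 tested *calcrla* peaks, by distance to the annotated start (horizontal axis), in the 6 ATAC groups (bars: means, points: libraries). Both larval epicardium groups exceed their non-epicardium groups at 67.4, 65.8, 55.1 and 6.05 kb, and at 40.7 kb tcf21 larval non-epicardium exceeds tcf21 larval epicardium.

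A *calcrla* peak 40.7 kb from the start, also in the first annotated intron (chr9:42575709-42576209), went against the rest of the gene with tcf21. It had 6.71 and 12.01 CPM in tcf21 larval epicardium and 56.4 and 24.5 CPM in tcf21 non-epicardium (log2 fold change -2.19, SE 0.56, edgeR adjusted p = 0.00582). With tbx18 it had 38.0 and 50.8 CPM in epicardium and 34.5 and 32.1 CPM in non-epicardium (log2 fold change 0.40, SE 0.43, edgeR adjusted p = 0.519). It was the 1 of 17 member peaks at which the epicardium effect differed between the reporters (log2 difference -2.59, SE 0.71, edgeR adjusted p = 0.0483), against 1.51% of all peaks. That test passed in 4 of 16 alternatives. The tcf21 call was lost without non-epicardium replicate 1 (log2 fold change -1.40, edgeR adjusted p = 0.256) or epicardium replicate 1 (log2 fold change -1.70, edgeR adjusted p = 0.131).

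*ramp2* had 3 peaks that were lower in tbx18 larval epicardium. Of its 2 promoter peaks, which belong to different annotated transcripts, the one at chr3:36704425-36704925 had 3.22 and 2.05 CPM in tbx18 epicardium and 13.1 and 27.4 CPM in tbx18 non-epicardium (log2 fold change -2.82, SE 0.65, edgeR adjusted p = 0.000917), and was called without each library in turn. The other, at chr3:36696970-36697470, had 7.45 and 6.16 CPM in tbx18 epicardium and 19.4 and 18.4 CPM in tbx18 non-epicardium (log2 fold change -1.45, SE 0.49, edgeR adjusted p = 0.0227), a call lost without any one library. The peak 6.34 kb upstream had 11.7 and 15.9 CPM in tbx18 epicardium and 43.9 and 43.2 CPM in tbx18 non-epicardium (log2 fold change -1.68, SE 0.46, edgeR adjusted p = 0.0051), and was not called without epicardium replicate 1 (edgeR adjusted p = 0.0926). With tcf21 the 5 *ramp2* peaks had log2 fold changes of -1.92 to 0.65 and did not pass (adjusted p from 0.249 to 0.876, edgeR).

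The *calcrlb* promoter peak (chr6:11445019-11445868, 850 bases wide) had 5.63 and 12.3 CPM in tbx18 larval epicardium and 24.1 and 36.9 CPM in tbx18 non-epicardium (log2 fold change -1.82, SE 0.47, edgeR adjusted p = 0.00304). The call was lost without epicardium replicate 1 (edgeR adjusted p = 0.129) or non-epicardium replicate 2 (edgeR adjusted p = 0.0705). With tcf21 the groups overlapped (log2 fold change 0.01, edgeR adjusted p = 0.992). The peak 32.2 kb downstream passed with neither reporter.

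After cryoinjury 0 of 17 member peaks were called against sham by edgeR or by the Wald test of DESeq2, and 0.00162% of all peaks were called. At an unadjusted p under 0.05 edgeR gave 2 of the 17 peaks, both of *ramp2*. The share of all peaks at that threshold was not counted, so nothing is read from these 2. The peak 6.34 kb upstream had 7.06, 13.1, 11.4 and 13.2 CPM after cryoinjury and 3.07 and 5.07 CPM after sham surgery (log2 fold change 1.56, SE 0.51, edgeR adjusted p = 0.597). The peak 3.89 kb downstream had 22.0 to 35.3 CPM after cryoinjury and 39.6 and 53.6 CPM after sham surgery (log2 fold change -0.70, edgeR adjusted p = 0.714). The *adma* promoter had 10.6, 14.4, 18.4 and 16.1 CPM after cryoinjury and 19.1 and 28.3 CPM after sham surgery (log2 fold change -0.63, SE 0.45, edgeR adjusted p = 0.849).

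Against tcf21 larval epicardium, 4 of 17 member peaks were lower after cryoinjury and 0 higher, where 14% of all peaks were called and 10.1% were lower. Against the same larval libraries, 2 of 17 were lower in sham and 0 higher, where 7.64% of all peaks were called and 5.30% were lower. The 65.8 kb peak of *calcrla* had 6.98 to 8.85 CPM after cryoinjury and 4.35 and 9.55 CPM after sham surgery, below the 11.2 and 49.6 CPM of larval epicardium. Its log2 fold change was -1.83 for cryoinjury (SE 0.48, edgeR adjusted p = 0.00703) and -1.996 for sham (SE 0.58, edgeR adjusted p = 0.0257). Without larval epicardium replicate 2 these were -0.53 (edgeR adjusted p = 0.675) and -0.73 (edgeR adjusted p = 0.609).

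The *calcrla* peak at 6.05 kb had 6.01 to 8.82 CPM after cryoinjury and 1.36 and 6.52 CPM after sham surgery, below 19.0 and 22.5 CPM in larval epicardium. The log2 fold change was -1.51 for cryoinjury (SE 0.52, edgeR adjusted p = 0.0429) and -2.58 for sham (SE 0.67, edgeR adjusted p = 0.0129). The *calcrla* promoter (log2 fold change -1.57, edgeR adjusted p = 0.0375) and the upstream *adma* peak (-2.40, edgeR adjusted p = 0.0322) were lower after cryoinjury. That *adma* peak held few counts, 8 and 3 in tcf21 larval epicardium and 1, 3, 2 and 9 after cryoinjury. Scaling by total count left 1 of the 4 cryoinjury calls, the 65.8 kb peak, and called both *ramp2* promoter peaks higher. Without larval epicardium replicate 2 edgeR called 0 of the 17 peaks in either adult comparison. The *adma* promoter went the other way in value, with 14.8 ± 3.28 CPM in cryoinjury (SD, n = 4) and 23.7 ± 6.47 CPM in sham libraries (SD, n = 2), against 8.24 ± 5.33 CPM in tcf21 larval epicardium (SD, n = 2), and did not pass for cryoinjury (log2 fold change 0.93, edgeR adjusted p = 0.306) or sham (1.56, edgeR adjusted p = 0.126). At this peak tcf21 larval epicardium held only 4 and 8 counts. The tbx18 larval epicardium, which was not tested against the adult groups, had 19.2 ± 10.4 CPM (SD, n = 2), between the adult means. *adma* RNA was lower in both adult groups than in larval epicardium.

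**Figure D5:**
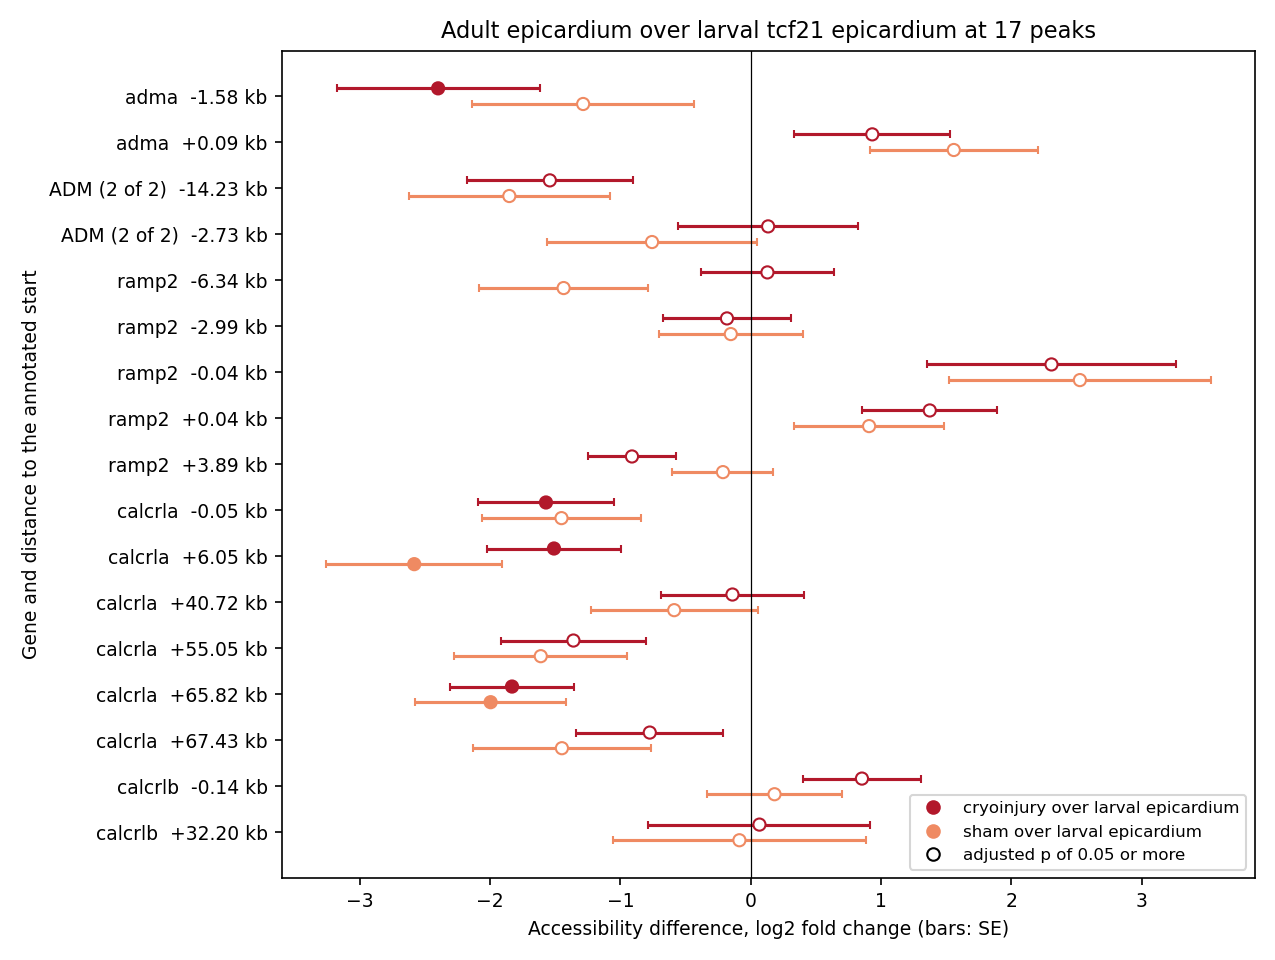
Log2 fold change of accessibility, adult epicardium over tcf21 larval epicardium (horizontal axis, bars: SE), at the 17 tested peaks of the members, for cryoinjury and for sham, which share the larval libraries. Filled points passed an adjusted p under 0.05, and all of them lie left of 0.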

How the data were processed

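RNA was measured in 11 and accessibility in 14 libraries. Raw counts were deposited for each gene (31275 genes) and each peak (61954 peaks, 1 set shared by all ATAC libraries). Per the submitters' processing notes, Bowtie 1.2.3, STAR 2.7.3a, SAMtools 1.10, MACS2 2.2.7.1, HOMER, DiffBind 3.0.13, featureCounts, edgeR 3.32.1 and the build GRCz10 were used, and their roles, the strandedness and the treatment of multi-mapping reads are not given in the sources used here. The deposited annotation gave each peak its gene and distance to the annotated start (positive downstream) and the share of G and C as a fraction, which ran from 30.7% upward over the member peaks. The deposited gene length gave CPM per kilobase. A further 14 columns of FPKM per peak were not used. No ATAC count is below 1, so 1 may mean 1 read or none, and even counts exceeded odd neighbours by up to 3.3 times, so part of these counts come in pairs and intervals cover counting error only.

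Groups follow the labels. The larval RNA columns carry other replicate numbers than the sample titles, and these libraries are named A, B and C. The test was edgeR 4.0.16 (R 4.3.3), quasi-likelihood and two-sided, with TMM scaling and the filterByExpr filter (minimum count 10, minimum total 15). Each assay was fitted once over its libraries with a mean for every group. Benjamini-Hochberg adjustment ran over all 20745 genes or 61883 peaks tested, and an adjusted p under 0.05 is referred to as called. All 5 genes and 17 of 18 peaks passed the filter. SE is the absolute log2 fold change over the square root of F. A group at 0 counts was set to a floor of 3 counts per library. Scripts were tested on simulated data. All replicate pairs differed by more than counting error (lowest chi-square per degree of freedom 22.2 in RNA and 3.03 in ATAC). Alternatives were DESeq2 size factors, total count, DESeq2 1.42.0, no filter, a minimum log2 fold change of 1, only the groups compared, halved ATAC counts, the replicate number as a block, and each library left out.

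All members are named, with every tested peak or the peak nearest the start and the largest change per comparison. For each pathway list up to 4 called genes with the largest change and at least 5 CPM in the higher group were candidates for naming, and most like genes are the 5 with the highest Pearson r. The members, gene lists and tests were chosen with earlier results of these data known. No sequence of this build was at hand, so no motif was searched and none is printed.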

Additional observations from a re-analysis of the deposited data

Results flagged for a closer look

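The *calcrla* peak 40.7 kb from the annotated start stood out because its epicardium effect differed between the larval reporters by a test of the difference itself (log2 difference, tcf21 effect minus tbx18 effect, of -2.59, SE 0.71, edgeR adjusted p = 0.0483). It had 6.71 and 12.01 CPM in tcf21 larval epicardium against 56.4 and 24.5 CPM in tcf21 non-epicardium, and 38.0 and 50.8 CPM in tbx18 larval epicardium against 34.5 and 32.1 CPM in tbx18 non-epicardium. The adjusted p ranged from 0.0279 to 0.28 over 16 alternatives, of which 4 passed. The reporter and a possible batch difference between the reporters cannot be told apart. No library stood apart from the other 3 of its group in any of the 17 groups of 4 values examined, where chance would mark about 1 in 20.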

How the results depend on the processing

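Of the alternatives for single genes and peaks, 852 left direction and call as they were, 81 lost a call, 7 gained one, 4 moved an untested value by more than its SE and 33 turned the sign. In larval RNA 4 of the 5 members had a positive log2 fold change in every setting. In accessibility of cryoinjury against sham 0 member peaks were called throughout, and in RNA of sham against larval epicardium 1 of the 3 receptor parts was called throughout. For cryoinjury against larval epicardium in RNA, the count of receptor parts called, 1, became 2 with DESeq2 size factors, total count and the Wald test of DESeq2. For cryoinjury against sham in RNA, 1 member called became 0 with a minimum log2 fold change of 1 and with only the groups compared, and ran from 0 to 2 with a library left out. In accessibility a minimum log2 fold change of 1 left 1 of 3 tcf21 calls, 6 of 11 tbx18 calls, 0 of 1 between the reporters, and 0 of 4 and 0 of 2 for cryoinjury and sham against larval epicardium. Leaving out a library gave 0 to 2 with tcf21, 7 to 8 with tbx18, 0 to 1 between the reporters, 0 to 5 for cryoinjury and 0 to 2 for sham against larval epicardium. The difference between the reporters was 0 also with DESeq2 size factors, the Wald test and only the groups compared. Sham against larval epicardium gave 1 with total count and with only the groups compared, and cryoinjury gave 2 with counts halved. The cause was not tested in any of these, beyond the fewer libraries of the fits that leave one out.

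With the replicate number as a block, accessibility gave 3 calls with tcf21, 11 with tbx18, 0 between the reporters, 0 for cryoinjury against sham, 0 for cryoinjury and 1 for sham against larval epicardium. The labels give same-numbered libraries a shared number and do not say whether they came from the same hearts. The correlation of their deviations was 0.052 in the tcf21 and 0.124 in the tbx18 larval pair, and -0.007 and 0.051 in the adult pairs. With 2 libraries in each larval group the deviations mirror each other, so these values cannot show whether libraries were paired. No paired analysis was run for RNA. The columns of both larval groups carry the same numbers, which differ from those of the titles, and the adult groups share none. Whether a block by column number would change the larval RNA values was not tested.

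Signs turned for uncalled values only, which lay between -0.76 and 0.74. *ramp2* RNA in sham against larval epicardium was -0.23 with DESeq2 size factors and with the Wald test, -0.46 with total count, -0.0269 with only the groups compared and -0.20 to 0.36 with a library left out. In cryoinjury against sham, *adma* was 0.0355 and *calcrlb* 0.11 with total count, and -0.80 to 0.93 and -1.24 to 0.12 with a library left out. With tcf21, leaving out a library gave -0.72 to 1.21 at the nearer ADM (2 of 2) peak, -0.54 to 0.38 at the *ramp2* promoter at +37, -0.22 to 1.39 at the *adma* promoter, -0.21 to 2.17 upstream of it, -0.36 to 0.86 at the *calcrla* promoter and -0.76 to 0.60 at the *calcrlb* promoter, which was -0.0745 with only the groups compared. Between the reporters the *calcrla* promoter gave -1.05 to 0.17. In cryoinjury against sham it gave -0.45 to 0.51, and the *ramp2* promoter at -37 gave -0.43 to 0.0101. Against larval epicardium the nearer ADM (2 of 2) peak gave -0.55 to 1.38 for cryoinjury and -2.32 to 0.45 for sham, and the *calcrlb* promoter gave -0.41 to 0.95 for sham.

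Over all features, total count moved the split of calls in larval RNA to 1938 higher and 1125 lower, against 1178 and 1611 with TMM, with medians of all genes of 0.93 and 0.32. In accessibility of cryoinjury against larval epicardium it gave 5317 higher and 3828 lower, against 2463 and 6222, with medians of 0.41 and 0.07. In RNA of cryoinjury against sham TMM gave 47 higher and 19 lower, total count 247 and 34, and the 66 calls became 166 with DESeq2 size factors, 1515 with the Wald test, 491 with no filter, 7 with the minimum log2 fold change and 0 with only the groups compared. Sham against larval epicardium had 2386 higher and 5321 lower in RNA, against 1608 and 6860 with total count, and 1446 and 3280 in accessibility, against 2557 and 2104. Of the 18 member peaks, 16 held under 10 counts in at least 1 tcf21 larval library and 8 in at least 1 tbx18 larval library, which limits the precision of their values.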
